A study of Mus musculus with 6 samples.

Results

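The genes described here are the 8 that make and carry the machinery of early antigen receptor assembly in lymphocytes: Rag1, Rag2, Dntt, Igll1, Vpreb1, Vpreb2, Vpreb3 and Il7r. They were taken by name, each matched through its gene identifier to 1 of the 56884 genes in a table of read counts from mouse spleen. The study asked how a mouse carrying SOX11 and CCND1 under the Eµ enhancer of the immunoglobulin heavy chain, named Eµ-SOX11CCND1, compares with human mantle cell lymphoma, a tumour of mature B cells. Libraries were made from 3 wild-type samples of spleen B cells, isolated by selection (WT, with column headers that read BL6), and from the whole spleens of 3 passage 1 (P1) recipients in an adoptive transfer of cells of the model. No age, recipient strain or number of donors is given in the sources used here, and nothing beyond the transferred cells is labelled as a treatment. WT libraries are lettered A, B and C in the order of the table, which does not say which mouse each came from, while the P1 libraries keep their labelled numbers, 3, 4 and 5.

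V(D)J recombination joins gene segments into the coding sequence of an antibody or T cell receptor. The RAG1 and RAG2 proteins together form the recombinase that cuts DNA beside the segments, and terminal deoxynucleotidyl transferase (TdT, from Dntt) adds bases at the joins. In pre-B cells a new heavy chain is first paired with a surrogate light chain, made of λ5 (from Igll1) and VpreB (from Vpreb1 or Vpreb2), which with CD79A and CD79B forms the pre-B receptor. The interleukin-7 receptor α chain (Il7r) carries the growth signal of mouse B cell progenitors and of many T cells. These genes are switched on in bone marrow and thymus and are largely silent in mature splenic B cells, apart from Vpreb3, which encodes a related chain that B cells go on making.

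Rag1 and Rag2 lie on chromosome 2 of GRCm39 at 101468627 to 101479846 and 101455063 to 101462874, on opposite strands and 5753 bases apart. Igll1 (16678535 to 16681849) and Vpreb1 (16686267 to 16688707) are neighbours on chromosome 16, 4418 bases apart on the same strand. Vpreb2 lies on the same chromosome at 17798292 to 17799137. The other members are Dntt on chromosome 19 at 41017714 to 41047964, Vpreb3 on chromosome 10 at 75778891 to 75785491, and Il7r on chromosome 15 at 9505874 to 9530262. All 8 matched the RefSeq promoter table of GRCm38.p6, from which the 250 bases before each start were read. Of these 8 stretches, 4 held the E-box CAGGTG, a letter pattern bound by E proteins such as those from Tcf3 and Tcf12, in either orientation. They belong to Rag1 (chr2:101649533-101649782, minus strand), Igll1 (chr16:16863986-16864235, minus strand), Vpreb1 (chr16:16869256-16869505, minus strand) and Vpreb2 (chr16:17980315-17980564, plus strand). They are shown 5′ to 3′ on the gene's strand because 3 of them precede members counted mainly in the same P1 library and because the last 2 share a stretch of sequence. Capitals mark CAGGTG or its reverse complement.
Rag1: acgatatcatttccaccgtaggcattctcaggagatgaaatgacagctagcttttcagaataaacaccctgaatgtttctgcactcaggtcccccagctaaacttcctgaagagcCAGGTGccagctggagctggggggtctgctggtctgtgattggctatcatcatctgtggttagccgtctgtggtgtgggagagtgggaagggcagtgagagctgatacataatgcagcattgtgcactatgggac
Igll1: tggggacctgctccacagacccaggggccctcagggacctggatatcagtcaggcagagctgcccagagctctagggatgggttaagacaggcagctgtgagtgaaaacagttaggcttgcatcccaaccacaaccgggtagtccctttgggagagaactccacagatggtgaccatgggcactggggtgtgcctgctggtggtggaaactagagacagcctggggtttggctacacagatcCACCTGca
Vpreb1: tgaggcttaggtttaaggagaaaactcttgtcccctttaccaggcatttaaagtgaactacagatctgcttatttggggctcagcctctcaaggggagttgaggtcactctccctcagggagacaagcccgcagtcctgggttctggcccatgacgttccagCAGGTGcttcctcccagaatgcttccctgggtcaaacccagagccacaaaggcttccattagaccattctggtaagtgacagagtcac
Vpreb2: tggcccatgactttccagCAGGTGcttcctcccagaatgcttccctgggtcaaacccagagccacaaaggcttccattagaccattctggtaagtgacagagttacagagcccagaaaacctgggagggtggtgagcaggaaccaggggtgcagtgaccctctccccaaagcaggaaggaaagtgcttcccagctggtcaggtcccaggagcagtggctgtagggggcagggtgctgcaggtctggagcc

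Each of the 4 stretches held 1 match, and none was found before Rag2, Dntt, Vpreb3 or Il7r. Over all 32851 promoters in that table, 17.2% of the same 250 bases held CAGGTG. The looser E-box CANNTG, which includes CAGGTG, was present before all 8 members and in 66.2% of all promoters. CCCNNGGG, the core of the EBF1 motif, was found only before Igll1 among the members (11.8% of all promoters). TGGGAA, the Ikaros core, was found before Rag1 and Vpreb2 (21.6%), and the forkhead motif TGTTTAC before none of the 8 (3.17%). These are letter matches on either strand, and binding at them was not measured.

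Vpreb1 and Vpreb2 are near copies. Their longest protein-coding transcripts were identical at 97.4% of 759 aligned bases, with an unbroken identical run of 196 bases, and their promoter windows at 98.1% of 156 aligned bases. How reads that match both genes were counted is not given in the sources used here, so a count of 0 for Vpreb2 and a count above 0 for Vpreb1 cannot be fully assigned between them. Vpreb1 also overlaps Top3b on the opposite strand, Vpreb3 overlaps Gm16221 on the opposite strand, and Rag1 lies within the span of B230118H07Rik on the same strand. The counting strand is not stated, so reads in overlapping exons of opposite genes cannot be told apart.

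Library totals ran from 7510327 to 14266132 counts. Sox11, a gene of the model, followed the labels, with 0, 1 and 0 counts in WT A to C, and 956, 4066 and 5584 in P1 spleens 3, 4 and 5. The summed level of 20 pan-B cell genes was 12300 to 13200 CPM (counts scaled to a common library size after TMM adjustment) in the WT libraries and 2180, 1590 and 4300 in the P1 spleens. On this scale Sox11 was at 82.2, 941 and 648 in P1 spleens 3, 4 and 5. Ccnd1, the other gene of the model, was at 4.91, 6.36 and 22.4 CPM in WT A to C. In the P1 spleens Ccnd1 was at 105, 522 and 677 CPM. Both were lowest in spleen 3 among the P1 libraries. T cell, neutrophil and erythroid marker sums were all higher in each P1 library than in any WT library. Selected B cells and whole spleens were compared, so tumour, passage and cell mixture cannot be told apart, and in bulk RNA neither can fewer cells of a type and less RNA per cell. The P1 spleens also differed among themselves. The erythroid sum was highest in spleen 4, at 223000 CPM against 35500 in spleen 3 and 6530 in spleen 5. P1 spleen 3 differed from the others in its heavy chain V genes and T cell level. The V gene with the most counts, Ighv1-69 in all 3 P1 libraries, took 55.5% of Ighv counts in spleen 3, against 92.6% in spleen 4 and 96.8% in spleen 5. The leading V gene of each WT library took 6.2 to 9.34%. Spleen 3 also had the largest summed T cell level, 1050 CPM against 502 and 611 in spleens 4 and 5. The shared V gene leaves it untested whether the P1 spleens stand for more than 1 transferred clone, so the p-values below measure the spread between these libraries.

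Of the 8 members, 2 passed the filter on low counts (a level of about 0.887 CPM in at least 3 libraries), Vpreb3 and Il7r. With edgeR's quasi-likelihood test and Benjamini-Hochberg adjustment at 0.05, Il7r rose and Vpreb3 fell in P1 spleens. The background was high: of 15462 genes tested, 27.9% were called, 16.9% higher and 11.0% lower, and the single member called in each direction is read against those shares. The other 6 members were too low to test, and Vpreb2 had 0 counts in all 6 libraries. The remaining 5 had their highest level in P1 spleen 3.

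Rag1, which encodes the catalytic subunit of the recombinase, had 13, 8 and 7 counts in WT A to C, 126 in P1 spleen 3, and 0 in both P1 spleens 4 and 5. As levels these were 0.788, 0.514 and 0.529 CPM in the WT libraries and 10.8 CPM (exact 95% Poisson interval 9.03 to 12.9, counting error only) in spleen 3. One P1 spleen was thus far above the WT libraries and the other two had no count. A count of 0 allows up to 0.694 CPM in spleen 4 and 0.348 CPM in spleen 5 (3 counts of the library). At the level of spleen 3, 46.8 counts would be read in spleen 4 and 93.4 in spleen 5, so depth does not limit that contrast. The WT level is another matter: it would give 2.64 and 5.26 counts, and in spleen 4 a level like that of WT B cells was not detectable as different from 0. Over the groups the P1 to WT ratio was 8.3 (counting interval 5.47 to 13.0), and all of its P1 counts came from spleen 3.

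Rag2, the partner that RAG1 needs for cleavage, was near 0 throughout. It had 0, 0 and 1 counts in WT and 5, 0 and 0 in P1 spleens 3, 4 and 5. The level in spleen 3 was 0.43 CPM (interval 0.14 to 1.0). Its level there would give only 1.86 and 3.71 counts in spleens 4 and 5, so a difference among the P1 spleens was not detectable at this depth. Per kilobase of exon, Rag1 was 13.1 times the level of Rag2 in spleen 3 (counting interval 5.45 to 40.9). The gene that spans both, B230118H07Rik, had 0, 5 and 5 counts in WT and 13, 0 and 3 in the P1 libraries. Traf6, 28928 bases from Rag1, did not pass the test (log2 fold change -0.25, adjusted p = 0.54).

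Dntt, which encodes TdT, had 0, 4 and 12 counts in WT A to C, and 61, 2 and 2 in P1 spleens 3, 4 and 5. P1 spleen 3 reached 5.25 CPM (interval 4.01 to 6.74), while spleens 4 and 5, at 0.463 and 0.232 CPM, lay inside the WT range of 0 to 0.907 CPM. At the level of spleen 3 the other P1 spleens would have had 22.7 and 45.2 counts. The P1 to WT ratio over the groups was 7.49 (counting interval 4.28 to 13.9), and 61 of the 65 P1 counts came from spleen 3. The WT libraries also differed among themselves, from 0 counts in WT A to 12 in WT C.

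Igll1, which encodes the λ5 chain, had 0 counts in all 3 WT libraries, 35 in P1 spleen 3 and 0 in spleens 4 and 5. Its level in spleen 3 was 3.01 CPM (interval 2.1 to 4.19), and the same level would give 13.0 and 25.9 counts in spleens 4 and 5. Against the 3 counts that 0 allows over the WT group, the P1 to WT ratio was 21.5, again through 1 library. That ratio leaves out the counting error of the 35 P1 counts, so it is not a strict lower bound. Vpreb1, which encodes the other chain of the surrogate light chain, had 4, 0 and 0 counts in WT A to C, and 27, 0 and 0 in P1 spleens 3, 4 and 5. Spleen 3 held 2.32 CPM (interval 1.53 to 3.38), a level that would give 10 and 20 counts in the others. The group ratio was 12.4 (counting interval 4.34 to 48.9). Per kilobase of exon, the levels in spleen 3 were 1.39 CPM for Igll1, 1.94 for Vpreb1, 2.29 for Dntt and 1.64 for Rag1, with 0.126 for Rag2.

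**Figure D1:**
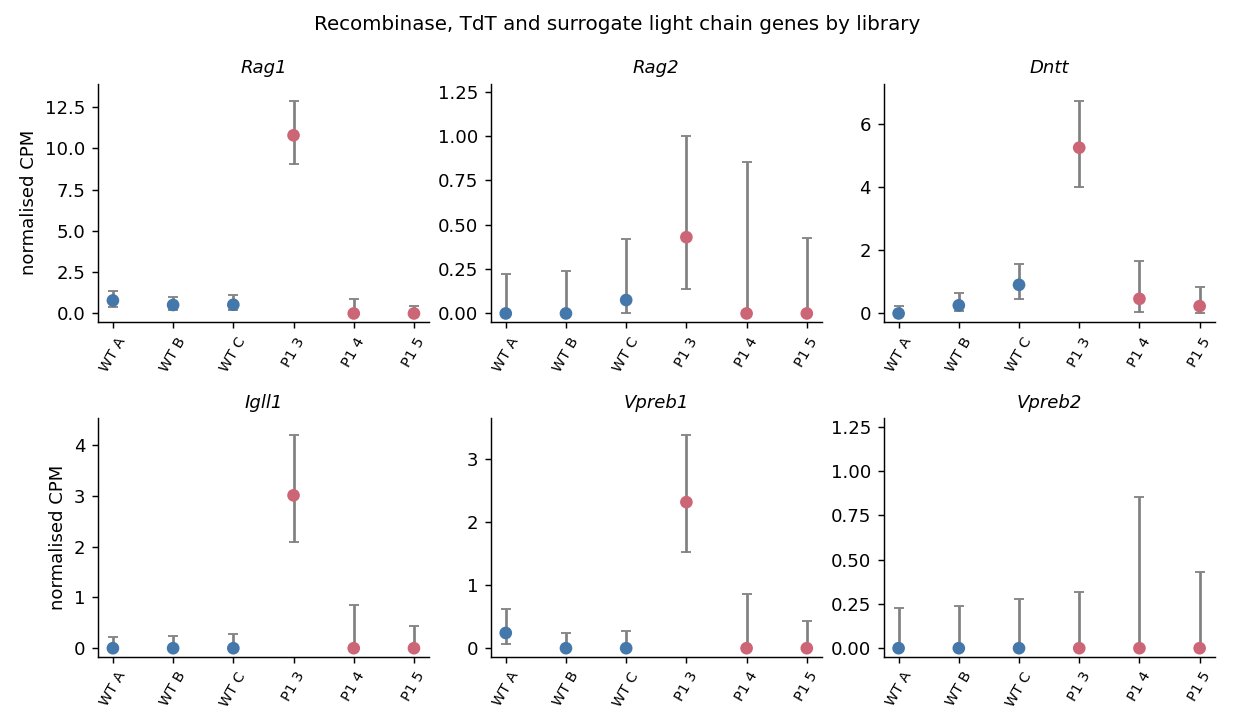
Level in CPM of the 6 members that did not pass the filter, in each of the 3 WT B cell and 3 P1 spleen libraries. Points are single libraries and bars the exact 95% Poisson interval, which covers counting error only. Rag1, Dntt, Igll1 and Vpreb1 stand up only in P1 spleen 3, and Vpreb2 is at 0 in all 6 libraries.

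None of these 6 was called by edgeR when the filter was removed, and none had an unadjusted p under 0.05, the smallest being 0.0581 for Igll1. The log2 fold changes (SE) were then 2.54 (2.04) for Rag1, with an adjusted p of 0.475, and 6.66 (2.71) for Igll1, with an adjusted p of 0.198. Vpreb1 gave 3.11 (1.66) and an adjusted p of 0.265, and Dntt 2.37 (1.49) and an adjusted p of 0.36. Rag2 gave an adjusted p of 0.359. DESeq2 called none of them either, and at an unadjusted p under 0.05 it had 1, Igll1 (adjusted p = 0.057). It gave no adjusted p for Rag1 and Rag2.

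A count of 25 or more in P1 spleen 3 with at most 2 in spleen 4 and at most 2 in spleen 5 was shared by 113 of 13062 genes, or 0.865%. That rule was set after the values were seen. Its limits lie close to member counts, 27 for Vpreb1 in spleen 3 and 2 for Dntt in each of spleens 4 and 5. The share of members that meet it therefore cannot be compared with the share of all genes. It held for 4 of the 6 members with 25 or more counts in spleen 3, namely Rag1, Dntt, Igll1 and Vpreb1. Of the 113 genes, 40 were immunoglobulin V genes, and those with the most counts were pancreatic enzymes. Ctrb1, which encodes chymotrypsinogen B, had 2988 counts in spleen 3 and 1 in each of spleens 4 and 5. Mature B cell genes were among them too: Fcer2a (CD23) had 58, 2 and 2 counts and Cr2 (CD21) 34, 0 and 2 in P1 spleens 3, 4 and 5. Spleen 3 was the highest P1 library for 17 of the 19 T cell markers tested, 8 of 8 neutrophil markers, 9 of 9 macrophage markers and 9 of 9 natural killer and innate lymphoid markers. It was the highest for only 2 of 9 erythroid markers, 3 of 20 pan-B cell genes and 1 of 18 end joining and repair genes. The share over all genes is not given here. The part of these other signals in the member counts was not tested. Ptcra, the pre-T cell receptor chain of thymocytes, had 0 counts in all 6 libraries.

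Vpreb3 was the member with most counts in WT B cells. It had 351, 411 and 261 counts in WT A to C, and 60, 0 and 12 in P1 spleens 3, 4 and 5, or 21.3, 26.4 and 19.7 against 5.16, 0 and 1.39 CPM. All 3 P1 libraries lay below all 3 WT libraries, as for 24.9% of the genes tested (47.8% did not overlap in either direction). The group levels were 22.5 ± 3.49 CPM in WT and 2.18 ± 2.67 CPM in P1 (SD, n = 3). The fall was 9.38-fold, a log2 fold change of -3.23 (SE 0.84, adjusted p = 0.0223). It passed the filter through its WT libraries. Without P1 spleen 3 the log2 fold change was -4.72 (adjusted p = 0.00498). The call was lost without WT A, B or C or P1 spleen 5, with adjusted p-values of 0.0634, 0.0809, 0.0508 and 0.0506, and with no filter on low counts (0.0865).

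The fall of Vpreb3 was set against other B cell genes, since 18 of the 20 pan-B cell genes also fell with the main scaling (11.0% of all genes tested). When the libraries were scaled to equal mean log2 level of the 20 pan-B cell genes, which moved the median of all genes by 2.66 on the log2 scale, the Vpreb3 value was -0.75 with an adjusted p of 0.451, while 88.4% of all genes were called. Relative to the median of all genes it was -3.24 with the main scaling and -3.42 with this one. Per 100 counts of Cd79a, the signalling chain of the B cell receptor, Vpreb3 had 2.56, 2.59 and 2.33 in WT A to C. The same ratio was 5.5 (exact 95% interval 4.17 to 7.14) in P1 spleen 3, 0 in spleen 4 and 0.623 (0.321 to 1.09) in spleen 5. Beside Cd79a the P1 spleens thus lay on both sides of the WT libraries, 1 above and 2 below, by more than counting error. In spleen 4, 0 counts beside 198 of Cd79a allow up to 1.52 per 100, still under the WT values. The group means, 2.49 ± 0.139 and 2.04 ± 3.01 (SD, n = 3), gave p = 1.0 in a two-sided exact permutation test, where 3 against 3 allows no less than 0.1. With Cd79b as the denominator the exact permutation p was 0.8, and with the sum of the 20 pan-B cell genes it was 0.4. On that last scale P1 spleen 3, at 0.237 per 100 (0.18 to 0.305), was no longer above WT B, at 0.199 (0.18 to 0.22), by more than counting error, while spleens 4 and 5 stayed below all WT libraries. These ratios were chosen after the values were seen.

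**Figure D2:**
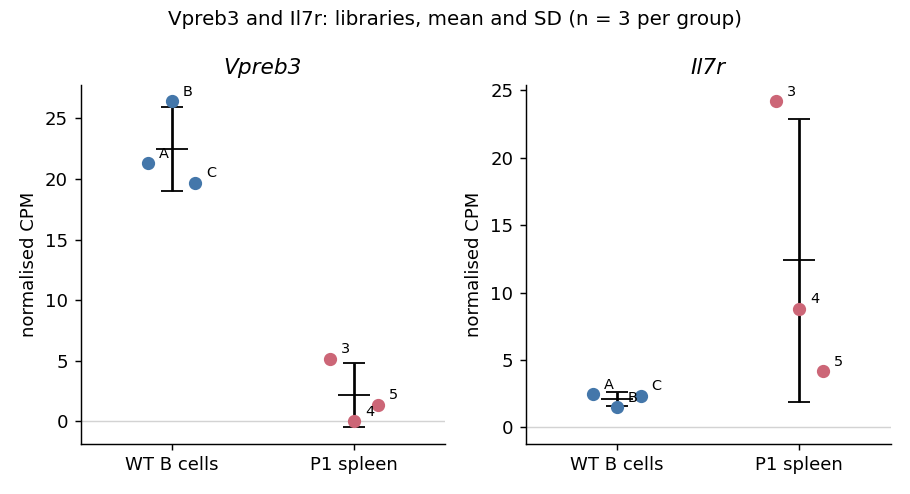
Level in CPM of the 2 members that passed the filter, Vpreb3 and Il7r, in WT B cells and P1 spleens. Points are single libraries, with the group mean and SD (n = 3). Vpreb3 is at 19.7 to 26.4 CPM in WT and at most 5.16 in P1, and Il7r at most 2.48 in WT and at least 4.18 in P1.

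Il7r had 41, 23 and 31 counts in WT A to C, and 281, 38 and 36 in P1 spleens 3, 4 and 5. These were 2.48, 1.48 and 2.34 against 24.2, 8.79 and 4.18 CPM. All 3 P1 libraries lay above all 3 WT libraries, as for 22.9% of the genes tested, and spleen 3 was the highest. The group levels were 2.1 ± 0.546 and 12.4 ± 10.5 CPM (SD, n = 3). The rise was 5.9-fold, a log2 fold change of 2.56 (SE 0.65, adjusted p = 0.0205). Without P1 spleen 3 it was 1.59 (adjusted p = 0.0463). The call was lost without WT A, B or C, with adjusted p-values of 0.0686, 0.0949 and 0.0668. Per kilobase of exon, Il7r was at 0.451 ± 0.117 CPM in WT and 2.65 ± 2.24 in P1, and Vpreb3 at 26.2 ± 4.06 and 2.54 ± 3.11 (SD, n = 3).

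Il7r is a T cell gene as well as a progenitor gene, and T cell genes rose with it. Of 20 T cell markers 19 were tested and 19 rose (16.9% of all genes tested). Their median log2 fold change was 3.97, against a median of 0.018 over all genes tested. The rises of 17 were kept under every alternative, and those of Lck and Tcf7 were not. Cd3e, a chain of the T cell receptor complex, was at 2.12, 0.963 and 1.81 CPM in WT A to C, and at 76.4, 12 and 25.2 in P1 spleens 3, 4 and 5. Beside Cd3d, Cd3e and Cd3g together, Il7r had 47.1, 51.1 and 58.5 counts per 100 in WT A to C. In P1 spleens 3, 4 and 5 it had 15.1, 20.8 and 6.17. The means were 52.2 ± 5.77 and 14 ± 7.36 (SD, n = 3), with every P1 library below every WT library, although the counting intervals of P1 spleen 4 (14.2 to 29.6) and WT B (29.5 to 86.3) met. The two-sided exact permutation p was 0.1, the least that 3 against 3 allows, and 0.2 after Benjamini-Hochberg adjustment over the 6 ratios computed for Vpreb3 and Il7r. Beside the summed T cell list the values were 2.88, 2.43 and 2.71 per 100 in WT and 2.3, 1.75 and 0.684 in P1, where the counting interval of spleen 3 (2.04 to 2.59) overlapped those of the WT libraries. Against Cd79a, Il7r was at 0.24 ± 0.0835 per 100 in WT and 15.6 ± 12.4 in P1 (SD, n = 3, exact permutation p = 0.1). Natural killer and innate lymphoid markers summed to 35.6 to 70.5 CPM in WT and to 335, 153 and 143 in P1 spleens 3, 4 and 5, but of 7 tested only Il2rb, Eomes and Id2 rose. The more specific natural killer receptor genes Klrb1c and Ncr1 had 59, 0 and 0 and 51, 0 and 2 counts in the P1 libraries, against 21 to 40 in WT, and did not pass. Their part in the Il7r level was not tested.

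**Figure D3:**
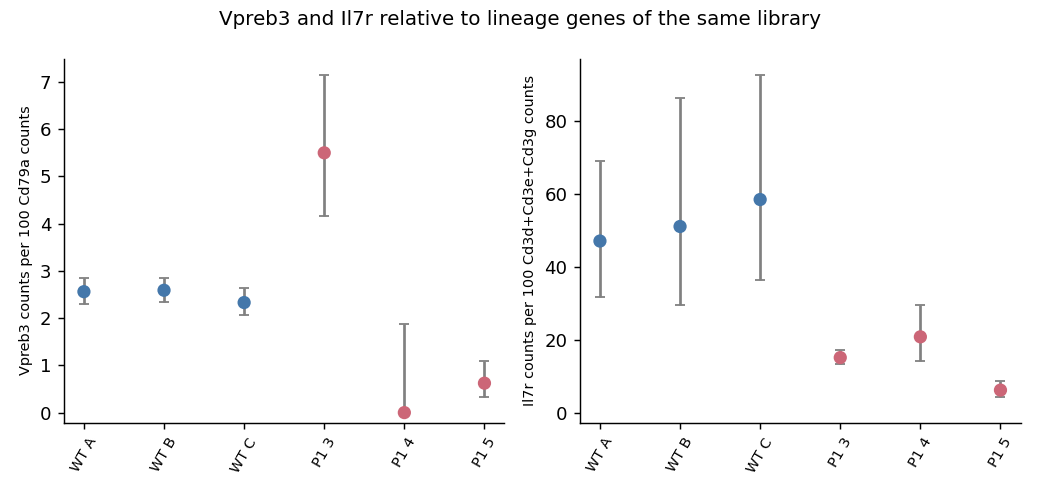
Counts of Vpreb3 per 100 counts of Cd79a (left) and of Il7r per 100 counts of Cd3d, Cd3e and Cd3g (right) in each library. Points are single libraries and bars exact 95% intervals for counting error. Vpreb3 is above the WT libraries in P1 spleen 3 and below them in the other P1 libraries, and Il7r is below the WT libraries in all 3 P1 libraries.

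Of the 21 genes of the interleukin-7 receptor pathway, 19 were tested, 6 rose and 3 fell (16.9% and 11.0% of all genes tested). The median log2 fold change was 0.32. With the B-cell-centred scaling 18 rose and none fell (87.6% and 0.802% of all genes tested). The rises of 3 genes were kept under every alternative. With any 1 WT library left out, 3 rose and 1 fell. The rises kept were those of Bcl2l1, the survival factor BCL-XL, and the STAT5 target genes Cish and Socs2, which restrain cytokine signals. Bcl2l1 rose from 9.33 ± 2.01 to 899 ± 1070 CPM (log2 fold change 6.59, SE 1.06, adjusted p = 0.00295), with its highest value, 2130 CPM, in P1 spleen 4. Bcl2l1 is also strongly expressed by erythroid cells, whose 9 markers summed to 54.3 to 79.9 CPM in WT and to 35500, 223000 and 6530 in P1 spleens 3, 4 and 5, and their part in it was not tested. Cish was at 0.667, 1.54 and 1.81 CPM in WT A to C, and at 27.2, 35.6 and 8.35 in P1 spleens 3, 4 and 5 (adjusted p = 0.00253). Socs2 rose from 1.13 ± 0.0307 to 20.5 ± 16 CPM (adjusted p = 0.00192). The part of erythroid and other cells, or of Il7r signals, in Cish and Socs2 was not tested. The partner chain of the receptor, Il2rg, fell from 220.0 ± 10.3 to 65.1 ± 48.2 CPM (log2 fold change -1.75, adjusted p = 0.0322), although with the B-cell-centred scaling its value was 0.82 and not called, and its call was lost without WT A, B or C or P1 spleen 5 (adjusted p at most 0.0875). Jak1, the kinase bound to Il7r, fell by 1.28 on the log2 scale (adjusted p = 0.0176), but was higher by 1.45 with the B-cell-centred scaling, and the call was lost when any 1 WT library was left out (adjusted p at most 0.0791). Crlf2, which pairs with Il7r in the receptor for thymic stromal lymphopoietin, had a log2 fold change of -0.05 (adjusted p = 0.936). The ligand gene Il7 had 0, 0 and 2 counts in WT and 7, 5 and 1 in P1.

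Of 19 transcription factors that act at the Rag locus or in early B cells, 9 fell and 4 rose (11.0% and 16.9% of all genes tested). The median log2 fold change was -0.89. With the B-cell-centred scaling 1 fell and 11 rose (0.802% and 87.6% of all genes tested). Ebf1, a factor needed to enter the B lineage, fell from 466 ± 20.3 to 26.6 ± 8.98 CPM (log2 fold change -4.13, SE 0.36, adjusted p = 0.000499) and was the 1 that fell with both scalings. Foxo1, an activator of Rag transcription, fell from 249 ± 41.3 to 39.3 ± 6.93 CPM (log2 fold change -2.66, adjusted p = 0.000672), and with the B-cell-centred scaling its adjusted p was 0.998. Myb rose from 7.41 ± 1.51 to 68.2 ± 20.5 CPM (log2 fold change 3.20, SE 0.32, adjusted p = 0.000644). Erg rose by 4.09 (adjusted p = 0.00166) and Gfi1b, known as a repressor of the Rag genes and as an erythroid factor, by 4.06 on the log2 scale (adjusted p = 0.00306). The rises of Myb, Erg and Gfi1b were kept under every alternative. Irf4, an activator of light chain rearrangement, fell by 1.93 (adjusted p = 0.00209), with 0.83 and no call under the B-cell-centred scaling. Tcf3 and Tcf12 encode E proteins that bind CAGGTG. Tcf3 had a log2 fold change of 0.23 and did not pass, and Tcf12 fell by 0.89 (adjusted p = 0.0216). Both were called higher with the B-cell-centred scaling, by 2.79 and 1.82. The fall of Tcf12 was lost with library totals alone (0.0591) and with any 1 WT library left out (adjusted p at most 0.109).

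Of 18 genes that rejoin or repair the ends cut by the recombinase, 2 rose, 2 fell and the rest did not pass, with a median log2 fold change of -0.28. These counts were near the shares of all genes tested, 16.9% higher and 11.0% lower. With the B-cell-centred scaling all 18 were called higher, as were 87.6% of all genes tested. H2ax, the histone phosphorylated at DNA breaks, rose from 42.3 ± 5.81 to 356 ± 54.7 CPM (log2 fold change 3.08, SE 0.28, adjusted p = 0.000546). Hmgb2, a cofactor of RAG cleavage that is also abundant in dividing cells, rose from 53.8 ± 4.44 to 256 ± 95.0 CPM (adjusted p = 0.00201). Both were kept under every alternative. Paxx and Polm, which act in end joining, fell by 1.11 and 1.00 on the log2 scale (adjusted p of 0.0264 and 0.0354), but both were called higher with the B-cell-centred scaling and neither passed with library totals alone (0.0856 and 0.104) or with any 1 WT library left out (adjusted p at most 0.106 and 0.117). Without P1 spleen 3 only Paxx fell, and without P1 spleen 5 the list had 4 that fell. Prkdc, the DNA-dependent protein kinase, had a log2 fold change of -0.66 (adjusted p = 0.0968). Of the 9 genes that control RAG protein turnover, 3 rose and none fell (16.9% and 11.0% of all genes tested). Without P1 spleen 4 it was 5 that rose. With the B-cell-centred scaling all 9 were called higher, as were 87.6% of all genes tested. Ccna2, the cyclin that with CDK2 marks RAG2 for destruction in S phase, rose from 8.29 ± 0.588 to 112 ± 28.6 CPM (log2 fold change 3.76, SE 0.29, adjusted p = 0.000376). Skp2, the ligase subunit for RAG2, rose by 1.85 (adjusted p = 0.00636).

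Of 18 pre-B receptor partner and signalling genes, 8 fell and 2 rose (11.0% and 16.9% of all genes tested). The median log2 fold change was -1.08. With the B-cell-centred scaling none fell and 12 rose (0.802% and 87.6% of all genes tested). Without WT A or WT B, 5 fell and 1 rose. Cd79a fell from 899 ± 106 to 121 ± 91.9 CPM (log2 fold change -2.89, SE 0.57, adjusted p = 0.00657), and its value with the B-cell-centred scaling was -0.53 (adjusted p = 0.247). Ighm, the heavy chain that the surrogate light chain pairs with, did not pass (5990 ± 729 and 2840 ± 895 CPM, adjusted p = 0.13). Blnk, the adaptor of pre-B receptor signals and a neighbour of Dntt at 34736 bases, fell by 1.29 (adjusted p = 0.0101) but was called higher, by 1.29, with the B-cell-centred scaling, and its fall did not pass without WT A or WT B (adjusted p at most 0.0519). Lcp2, the T cell and myeloid counterpart of Blnk, rose from 12.2 ± 5.85 to 99.9 ± 60.8 CPM (adjusted p = 0.00467).

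Of 15 genes that mark the pro-B and pre-B stages 12 were tested, 8 rose and 1 fell (16.9% and 11.0% of all genes tested). The median log2 fold change was 2.28, and 6 of the 8 rises were kept under every alternative. Without P1 spleen 3, 7 rose and 1 fell. The 6 were Cd93, Lef1, Myb, Erg, Bst1 and Spn, all of which other blood cells also express. Spn (CD43) was at 22.3, 18.6 and 36.9 CPM in WT A to C, and at 262, 107 and 206 in P1 spleens 3, 4 and 5 (adjusted p = 0.00207). Lef1 rose from 3.02 ± 0.0684 to 15.6 ± 2.57 CPM (adjusted p = 0.00175), evenly over the P1 spleens at 16.1, 17.8 and 12.8. Bst1 was uneven, at 42.1, 6.48 and 13.0 CPM in P1 spleens 3, 4 and 5 (adjusted p = 0.00433). Cxcr4 fell by 2.73 on the log2 scale (adjusted p = 0.00457), with -0.16 and no call under the B-cell-centred scaling. Genes more restricted to those stages were near 0: Enpep (BP-1) had 8 counts in P1 spleen 3 and 0 elsewhere, and Arpp21 had 1, 2 and 4 counts in WT and 1, 0 and 0 in P1. Mme (CD10) had 23 counts in P1 spleen 4 and 0 elsewhere. Il2ra (CD25), which marks small pre-B cells and activated or regulatory T cells, had 142, 0 and 14 counts in P1 spleens 3, 4 and 5 and did not pass (adjusted p = 0.186).

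**Figure D4:**
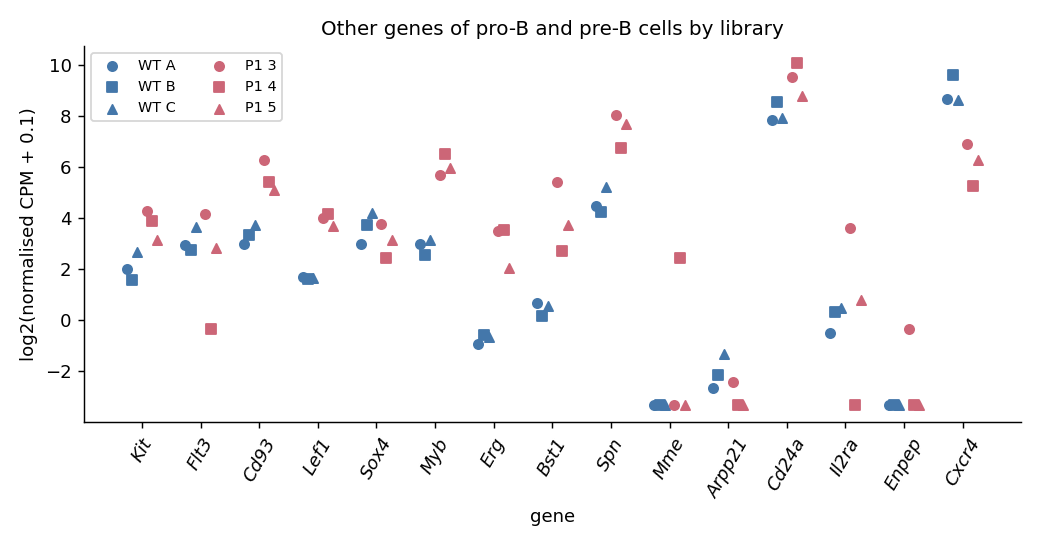
Level on the log2(CPM + 0.1) scale of 15 pro-B and pre-B stage genes, with 1 point for each WT B cell and P1 spleen library. Lef1, Spn, Myb, Erg, Bst1 and Cd93 are higher in all 3 P1 libraries, while Il2ra is high in P1 spleen 3 only, and Enpep, Mme and Arpp21 are near the floor in most libraries.

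Among 11901 genes compared over the 6 libraries, those with the pattern nearest to Vpreb3 were P2ry10b, Kmo and Rftn2, with root mean square differences of centred log2 CPM of 0.287, 0.401 and 0.467. P2ry10b had 287, 412 and 160 counts in WT A to C, and 53, 0 and 7 in P1 spleens 3, 4 and 5. The genes nearest to Il7r were Nqo1, Vill and Sh3yl1, with differences of 0.253, 0.259 and 0.263. Vill had 49, 28 and 49 counts in WT and 284, 34 and 50 in P1. In both sets P1 spleen 3 was the highest P1 library, as it was for Vpreb3 and Il7r, which follows from how these genes were chosen. Of the genes within 50 kb of Vpreb3, Gm867, at 2385 bases, rose by 5.04 on the log2 scale (adjusted p = 0.00525), with 7, 5 and 2 counts in WT and 260, 26 and 20 in P1. Smarcb1, 21440 bases from Vpreb3, had a log2 fold change of -0.12 (adjusted p = 0.821), and Top3b, which overlaps Vpreb1, one of -0.47 (adjusted p = 0.178).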

How the data were processed

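Read counts per gene were deposited by the authors as 1 table for all 6 libraries, with gene coordinates and exon lengths. Per the labels' protocols, 50 ng of total RNA went into directional libraries. Per the submitters' processing notes, Trim Galore, HISAT2, featureCounts and the build GRCm39 were used, and versions, options and counting strand are not given in the sources used here. Symbols were matched by gene identifier for 51948 of 56884 genes (91.3%), and no count column was left out.

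Genes were filtered with filterByExpr by group, scaled with TMM and tested with edgeR 4.0.16 (quasi-likelihood F-test, robust, R 4.3.3) over all 15462 genes kept, with Benjamini-Hochberg adjustment at 0.05. This gives the adjusted p-values of the text. CPM use the TMM-adjusted totals (factors from 0.578 to 1.18). Pairs of libraries of a group differed in a chi-square test by 19.5 to 280.2 per degree of freedom, so no pair was 1 library deposited under 2 names. Whether 2 libraries came from 1 animal cannot be seen from this. Among the P1 pairs, spleens 3 and 5 differed least (123.7) and spleens 4 and 5 most (280.2), with 212.6 for spleens 3 and 4. Poisson and binomial 95% intervals are exact, and they and the floors of 3 counts cover counting error only, since reads without molecular identifiers are not independent molecules. Where nothing says that libraries came from separate donors of the tumour, p-values measure only the spread between these libraries.

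The members, the gene lists (201 entries in 15 lists, all matched), the tests and the alternatives were chosen with earlier results of these data known. Genes named in the text are all members, the Sox11 and Ccnd1 check, the genes of the lists of 26 or fewer, neighbours within 50 kb, and the 3 curated genes nearest in pattern to each tested member. The pancreatic enzyme genes and the leading Ighv gene were outside that rule and named after their values were seen. The ratios to lineage genes, the pattern of P1 replicate 3 and the list counts without it were added after seeing the data. Alternatives were other size factors, library totals, B-cell-centred scaling, DESeq2 1.42.0, no filter, and leaving out each library. Promoters came from RefSeq (GRCm38.p6) and transcripts from GENCODE.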

Additional observations from a re-analysis of the deposited data

How the results depend on the processing

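The number of genes called higher was 2618 and ranged from 1644 to 3206 when each library was left out in turn, and the number called lower was 1702 and ranged from 815 to 2313. With the B-cell-centred scaling 13537 genes were higher and 124 lower, so the share of calls that were higher went from 60.6% to 99.1%. The count of members called higher was 1, and 0 to 1 with a library left out (0 without WT A, B or C). The count called lower was 1, and 0 with the B-cell-centred scaling, 0 with no filter and 0 to 1 with a library left out (0 without WT A, B or C or P1 spleen 5). Vpreb3 ranged from -4.72 to -2.72 with a library left out, and was -0.75 with the B-cell-centred scaling and -3.32 with no filter, neither passing. Il7r ranged from 1.59 to 2.97 with a library left out and was 5.27 (adjusted p = 0.000784) with the B-cell-centred scaling. DESeq2 called both, with adjusted p of 0.000178 for Vpreb3 and 0.000866 for Il7r. Genes called higher numbered 1715, 1644 and 1991 without WT A, B and C, and 2908, 2818 and 3206 without P1 spleens 3, 4 and 5. Each of these fits had fewer libraries than the main one, and the cause of the changes was not tested. Depth limits what can be said of Vpreb2, with 0 counts in all 6 libraries, and of Rag2, with at most 5 counts in any. No paired analysis was possible because the groups share fewer than 2 replicate numbers and the table does not say which WT mouse a column holds.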

Other observations

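P1 spleen 3 held many counts of some pancreatic enzyme genes. Besides Ctrb1, it had 1550 counts of Cela2a, 1412 of Cpa1 and 951 of Cpb1, which encode an elastase and 2 carboxypeptidases of the exocrine pancreas, and P1 spleens 4 and 5 had at most 2 counts of each. These genes were chosen after their values were seen, among those with at most 2 counts in each of spleens 4 and 5, so their low counts there follow from the choice. The heavy chain V genes other than the leading one summed to 526 to 662 CPM in the WT libraries and to 135, 9.72 and 9.05 CPM in P1 spleens 3, 4 and 5.

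Markers of haematopoietic progenitors differed from one another across the P1 spleens, and of 6 tested 1, Kit, rose (16.9% of all genes tested). The Kit call was lost with library totals alone, without WT A, without WT B and without P1 spleen 3 (adjusted p of 0.0909, 0.102, 0.108 and 0.0532). The progenitor markers summed to 88.5 to 105 CPM in WT and to 226, 90.9 and 240 in P1 spleens 3, 4 and 5. Ly6a, a gene that other lymphocytes also express, gave 167, 45.4 and 220 CPM of these P1 sums. Kit was at 19.4, 14.6 and 8.7 CPM, Flt3 at 17.9, 0.694 and 7.08, and Cd34 at 4.13, 4.17 and 0.348 in the same order. Their part in the member counts was not tested. Plasmacytoid dendritic cell markers summed to 51.3 to 67.0 CPM in WT and to 249, 148 and 163 in P1 spleens 3, 4 and 5. Of the 7 tested, 3 rose, Ly6c2, Bst2 and Runx2 (16.9% of all genes tested). The rises of 2 were kept under every alternative, and that of Bst2 (adjusted p = 0.049) was not. Siglech was at 1.27, 2.57 and 4.69 CPM in WT A to C, and at 10.7, 0.231 and 1.86 in P1 spleens 3, 4 and 5, and did not pass. The mature B cell list, with Cr2 and Fcer2a, fell in 10 of 10 genes (median log2 fold change -3.33), but with the B-cell-centred scaling 3 of them fell.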
